A study of Drosophila sechellia with 6 samples.

Results

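Chorion genes that lie away from the amplified chorion clusters were examined in *Drosophila sechellia* females fed noni, the fruit of *Morinda citrifolia*. There were 8 such genes among the 17273 genes of the expression table, chosen as orthologs of *D. melanogaster* chorion genes outside the X-linked and the autosomal cluster. They are *Femcoat* (GM12699), *yellow-g* (GM14127), *yellow-g2* (GM14481), *CG4009* (GM15392), *CG13084* (GM17352), *CG13083* (GM17353), *CG13114* (GM17541) and *Muc12Ea* (GM17674). The names come from tables of genes that responded to noni or to single noni compounds, so genes that responded to some treatment are over-represented among them.

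Females of strain 14021-0428.25, 0 to 3 days old, were fed for 24 h either instant *Drosophila* food to which 1 g of rotten noni pulp had been added or the same food alone. All flies had been reared on cornmeal medium at 20 °C. Each diet had 3 libraries of poly(A) RNA from 10 pooled whole flies each. Gene expression was given as FPKM, the number of sequenced fragments scaled for transcript length and library size, as 1 pooled value per gene and diet. No value of a single library was used, so no SD, no interval and no test stands behind any ratio below, and the depth of the libraries is not part of the table.

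The chorion is the outer part of the insect eggshell. In *D. melanogaster*, the somatic follicle cells that surround each egg chamber secrete the vitelline membrane first and the chorion proteins late in oogenesis, shortly before the egg is laid. The major chorion proteins come from genes in a pair of clusters whose DNA is copied extra times in follicle cells, which supplies the large amount of messenger RNA needed in a short time. Other chorion components, including enzymes that harden the shell, are encoded elsewhere in the genome.

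All 8 genes were higher on noni than on control food, against 54.8% of the 12044 genes that averaged 1 FPKM or more over both diets. At least 2-fold higher were 5 of the 8 genes, against 2.58% of the same 12044 genes. The names of the 8 genes came from tables of responding genes, in part from these same data. High counts were therefore favoured by the choice of genes, and their excess over all genes was not tested. The log2 ratio of noni to control ran from 0.35 to 2.42, with a median of 1.30 for the 8 genes and 0.04 for all genes. Summed over the 8 genes, expression was 1748 FPKM on noni and 891 FPKM on control food, a ratio of 1.96. The RNA came from whole flies, so more follicle cells at the stage of chorion synthesis and more chorion RNA per cell cannot be told apart.

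**Figure D1:**
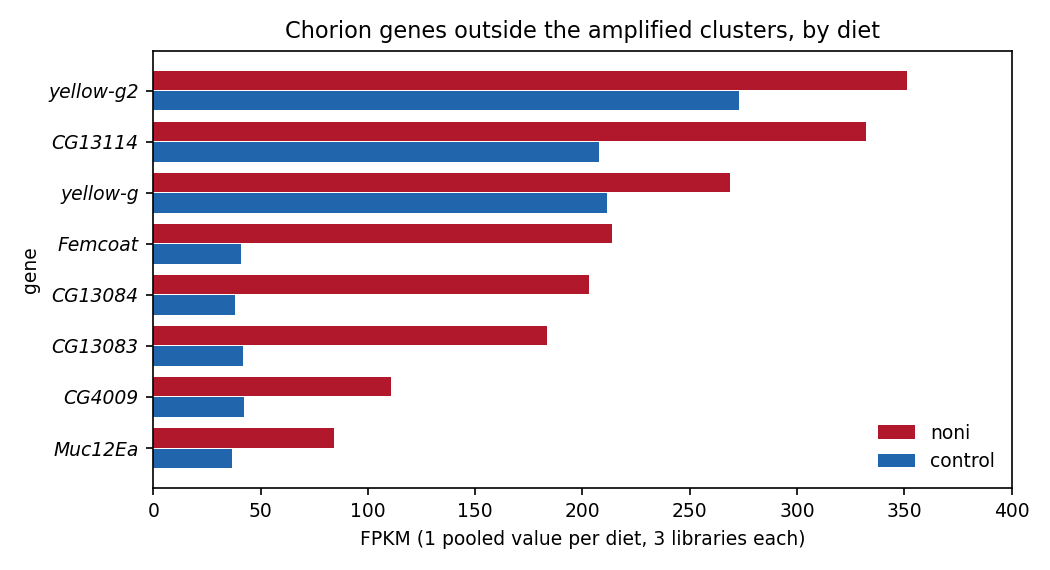
Expression of the 8 chorion genes outside the amplified clusters, in FPKM, with the noni bar above the control bar for each gene. Each bar is 1 value pooled over 3 libraries, so there are no error bars. The noni bar is the longer one for all 8 genes, and on control food 5 genes sit between 36.6 and 42.1 FPKM and 3 between 208 and 273 FPKM.

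The genes fell into a lower and a higher level on control food. Between 36.6 and 42.1 FPKM were *Muc12Ea*, *CG13084*, *Femcoat*, *CG13083* and *CG4009*, which are the 5 genes at least 2-fold higher on noni. Between 208 and 273 FPKM were *CG13114*, *yellow-g* and *yellow-g2*, which are the 3 genes under 2-fold. No gene lay in the 4.93-fold gap between them. The 5 genes of the lower level together had 796 FPKM on noni and 199.6 FPKM on control food, a ratio of 3.99. For the 3 genes of the higher level the sums were 952 FPKM on noni and 692 FPKM on control food, a ratio of 1.38. The lower level therefore made up 45.5% of the expression of the 8 genes on noni and 22.4% on control food.

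The largest ratio was that of *CG13084*, a gene known only by its number, on scaffold 7 from 3100121 to 3101523. It had 203 FPKM on noni and 38.1 FPKM on control food, 5.34-fold higher on noni, with a log2 ratio of 2.42. Of the 11860 genes that averaged 1 FPKM or more and were above 0 in both diets, 35 had a larger ratio. Its neighbour *CG13083*, on scaffold 7 from 3102702 to 3103709, had 184 FPKM on noni and 42.0 FPKM on control food, with a log2 ratio of 2.13. The loci of these genes are 1178 nt apart with no gene between them, and *CG13084* stood at 1.11 times *CG13083* on noni and 0.907 times on control food. Together they made up 22.1% of the expression of the 8 genes on noni and 8.98% on control food.

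*Femcoat*, an eggshell gene of *D. melanogaster*, had 214 FPKM on noni and 40.9 FPKM on control food. Its log2 ratio was 2.39, exceeded by that of 37 of the 11860 genes. Its locus on scaffold 4, from 2595213 to 2603321, is the longest of the 8 at 8109 nt. Among the 8912 genes with at least 10 FPKM on control food and above 0 on noni, *CG13084* ranked at place 3 and *Femcoat* at place 4 by their ratio.

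*CG4009* belongs to the heme peroxidases, a class of enzymes whose members crosslink proteins of the insect eggshell. It lies on scaffold 12 from 1292601 to 1296044 and had 111 FPKM on noni and 42.1 FPKM on control food, with a log2 ratio of 1.40. *Muc12Ea*, which by its name is a mucin-like gene, lies on scaffold 20 from 779372 to 780268. It had 84.3 FPKM on noni and 36.6 FPKM on control food, with a log2 ratio of 1.21, and was the least abundant of the 8 genes in both diets. The ratios of *CG4009* and *Muc12Ea* were below those of *CG13084*, *Femcoat* and *CG13083* although all 5 had similar levels on control food, so that the spread from highest to lowest among the 5 was 2.53-fold on noni and 1.15-fold on control food.

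*yellow-g2* and *yellow-g* belong to the *yellow* family, named for a gene of cuticle pigmentation. In *D. melanogaster* both are expressed in follicle cells and lie in a further region that is amplified there to a lesser extent, and *yellow-g* is needed for a rigid eggshell. Copy number was not measured here for any of the 8 genes, and whether others of the 8 lie in such regions was not examined. *yellow-g2*, on scaffold 2 from 2302155 to 2303361, had 351 FPKM on noni and 273 FPKM on control food and was the most abundant of the 8 genes in both diets. *yellow-g*, on scaffold 2 from 2295491 to 2298282, had 269 FPKM on noni and 212 FPKM on control food. Their log2 ratios of 0.36 and 0.35 were the smallest of the 8 and differed by 0.02, and *yellow-g2* stood at 1.31 times *yellow-g* on noni and 1.29 times on control food. A ratio larger than that of *yellow-g* was found for 2011 of the 11860 genes. The pair made up 35.5% of the expression of the 8 genes on noni and 54.3% on control food.

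*CG13114*, also known only by its number, lies on scaffold 3 from 4993372 to 4994619. With 332 FPKM on noni and 208 FPKM on control food it had a log2 ratio of 0.68, between those of the *yellow* pair and of the other 5 genes. It was second to *yellow-g2* on noni, while on control food *yellow-g* stood between them. The difference between diets in FPKM was 125 for *CG13114*, larger than the 47.8 of *Muc12Ea* and the 68.7 of *CG4009*, whose ratios were larger.

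Levels on control food were compared with those of other genes at the same level. The limits of each band were set from the control values of the chorion genes themselves, so these genes were bound to fall inside. Of 560 genes between 36 and 43 FPKM on control food, 11 (1.96%) were at least 2-fold higher on noni. By this construction they include the 5 chorion genes of the lower level. Of 240 genes between 207 and 273 FPKM on control food, 3 (1.25%) were at least 2-fold higher on noni, none among the 8 genes. A log2 ratio at or above the 0.35 of *yellow-g* was found for 25 of the 240. By construction these include *yellow-g*, *yellow-g2* and *CG13114*, and the clustered chorion gene *Cp7Fc* is also among them. Across the 8 genes, the level on control food and the log2 ratio had a Spearman's rho of -0.74, and across the 11860 genes a rho of -0.10. The control value enters both measures, so some negative correlation is built in, and genes of 1 pair of pooled values are not independent.

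**Figure D2:**
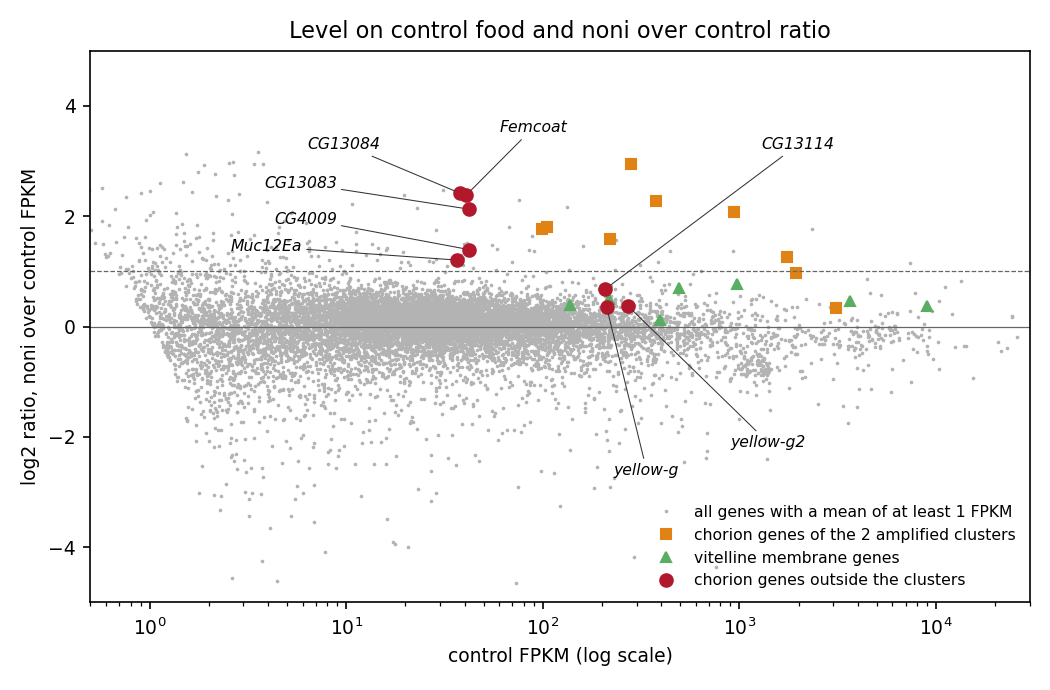
Control FPKM (log scale) against the log2 ratio of noni to control, 1 point per gene, for genes that averaged 1 FPKM or more and are above 0 in both diets. The plot leaves out 24 of these genes that lie beyond its axes, and the dashed line marks a 2-fold higher value on noni. The chorion genes outside the clusters (red) stand in a group of 5 above the dashed line near 40 FPKM and a group of 3 below it at over 200 FPKM.

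The 9 chorion genes of the amplified clusters served as the nearest comparison. All 9 were higher on noni, against 54.8% of the 12044 genes, and 7 were at least 2-fold higher, against 2.58%. The median log2 ratio of the 9 was 1.76, so the median of the 8 genes outside the clusters was lower by a difference of -0.46. The 5 genes of the X-linked cluster, *Cp7Fa*, *Cp7Fb*, *Cp7Fc*, *Cp36* and *Cp38*, had a median of 1.58, and the 4 of the autosomal cluster, *Cp15*, *Cp16*, *Cp18* and *Cp19*, had a median of 2.18. Ratios overlapped widely between the 8 genes, at 0.35 to 2.42, and the clustered genes, at 0.33 for *Cp15* to 2.95 for *Cp18*. In level the genes outside the clusters were minor, making up 7.60% of the summed FPKM of these 17 chorion genes on noni and 9.16% on control food. Their most abundant member, *yellow-g2* at 351 FPKM on noni and 273 FPKM on control food, was at the level of the less abundant genes of the X-linked cluster on noni, such as *Cp7Fb* at 368 FPKM on noni and 105 FPKM on control food.

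The clustered genes also included a gene of high level and small ratio. *Cp15* had 3917 FPKM on noni and 3117 FPKM on control food, a log2 ratio of 0.33, close to the 0.35 of *yellow-g*. *Cp18*, with the largest ratio of the 17 genes, had 2159 FPKM on noni and 280.2 FPKM on control food. Across the 9 clustered genes, Spearman's rho between the level on control food and the log2 ratio was -0.53, with the same built-in dependence.

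**Figure D3:**
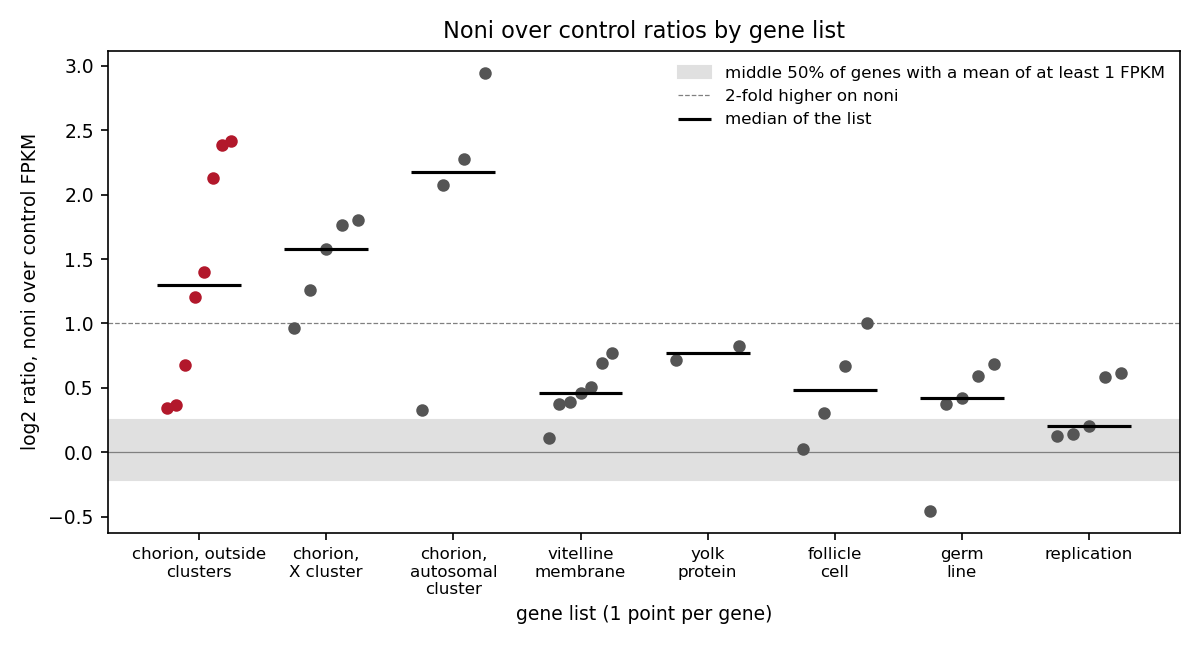
Log2 ratio of noni to control FPKM for each gene of 8 lists, with the chorion genes outside the clusters in red at the left, the median of each list as a bar and the middle 50% of the genes averaging 1 FPKM or more as a grey band (-0.21 to 0.25). The 8 chorion genes outside the clusters all lie above the band, at 0.35 to 2.42, and the 7 vitelline membrane genes lie at 0.11 to 0.77.

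Genes of the inner eggshell layer had smaller ratios. All 7 vitelline membrane genes, *Vm26Aa*, *Vm26Ab*, *Vm26Ac*, *Vm32E*, *Vml*, *psd* and *Fcp3C*, were higher on noni, against 54.8% of the 12044 genes. None of the 7 was 2-fold higher, against 2.58%. The log2 ratios of the 7 had a median of 0.46 and a range of 0.11 to 0.77. *CG13114*, *yellow-g2* and *yellow-g* fell within this range, and the other 5 chorion genes outside the clusters were above it. The summed FPKM of the 8 genes was 8.69% of that of the vitelline membrane genes on noni and 5.97% on control food. The annotation gives *Vml* (GM19220) the same locus as GM18892 and GM18893, so its value is uncertain. The same holds for *nos*, *E2f1* and *Acp36DE* among the further lists, each of which shares its locus with another gene. None of the 8 genes shares or overlaps the locus of another gene.

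Markers of the cells and tissues involved varied in their ratios, and none was as high as *CG13084*, *Femcoat*, *CG13083*, *CG4009* or *Muc12Ea*. The yolk protein genes *Yp1* and *Yp2*, transcribed in fat body and follicle cells, had log2 ratios of 0.83 and 0.72, both above those of *CG13114*, *yellow-g2* and *yellow-g*. The follicle cell genes *tj* (0.02), *ndl* (0.67) and *Cad74A* (1.00), listed together with *EcR* (0.31), had summed levels of 102 FPKM on noni and 75.6 FPKM on control food. The ratio of these sums was 1.34. *EcR* was not among the planned follicle cell markers and is not specific to these cells, so the sums are not of follicle cells alone. For the germline genes *otu*, *nos*, *bcd*, *plu* and *aub* the sums were 645 FPKM on noni and 483 FPKM on control food, with 4 of 5 higher and *aub* lower at -0.45. Without *nos*, whose locus is also given to GM10044, they were 306 FPKM on noni and 230.4 FPKM on control food. The replication genes *Orc1* (0.21), *Orc3* (0.62), *Orc4* (0.59), *dup* (0.12) and *E2f1* (0.15) had a median of 0.21. All 5 were higher on noni, and none was 2-fold higher. Their products act in or regulate DNA replication, the process by which follicle cells amplify the clusters. *Acp70A*, *Acp53Ea*, *Acp36DE*, *Acp29AB* and *Acp62F* of the male accessory gland were all listed at 0 on noni, and on control food 4 were listed at 0 and *Acp36DE* at 0.0452 FPKM. The part of these changes in the ratios of the 8 chorion genes was not tested.

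Genes next to the 8 chorion genes were read to see whether whole stretches of a scaffold were higher on noni. The nearest genes on either side of *CG13084* and *CG13083* were GM17007, with 10.2 FPKM on noni and 13.9 FPKM on control food, and GM17006, with 30.6 FPKM on noni and 21.8 FPKM on control food. GM15391, 47 nt before *CG4009*, had 18.6 FPKM on noni and 16.8 FPKM on control food, while GM15198 on its other side was listed at 0 in both diets. Around the *yellow* pair, GM14480 had 0.853 FPKM on noni and 0.491 FPKM on control food, GM14482 had 0.971 FPKM on noni and 1.66 FPKM on control food, and the tRNA gene GM27307 that lies between *yellow-g* and *yellow-g2* was listed at 0 in both diets. At these 3 places, then, the nearest genes outside the set were at lower levels than the chorion genes in both diets and none was 2-fold higher on noni. GM15198 and GM27307 were at 0, and GM14480 and GM14482 were near or below 1 FPKM, so they could hardly show a rise. The nearest genes therefore cannot answer the question at the *yellow* pair, and at *CG4009* only GM15391 bears on it.

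Of the other 3 genes, *CG13114* had a nearest neighbour with a larger ratio, and *Muc12Ea* had a nearest neighbour with a nearly equal ratio. The nearest genes of *Femcoat* were not higher on noni. GM17673, 425 nt before *Muc12Ea*, had 84.1 FPKM on noni and 36.8 FPKM on control food, with a log2 ratio of 1.19 against the 1.21 of *Muc12Ea*. The values of this pair were nearly equal in both diets, and whether the pair belongs to 1 gene could not be settled here. GM17559 on the other side of *Muc12Ea* had 5.09 FPKM on noni and 4.35 FPKM on control food. GM17532, the ortholog of *CG13113*, lies 1275 nt before *CG13114* and had 102 FPKM on noni and 22.9 FPKM on control food, a log2 ratio of 2.16 against the 0.68 of *CG13114*. GM12430 on the other side of *CG13114* had 65.7 FPKM on noni and 89.5 FPKM on control food. *Femcoat* lies between GM12334, with 5742 FPKM on noni and 5768 FPKM on control food, and GM12333, listed at 0 in both diets.

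**Figure D4:**
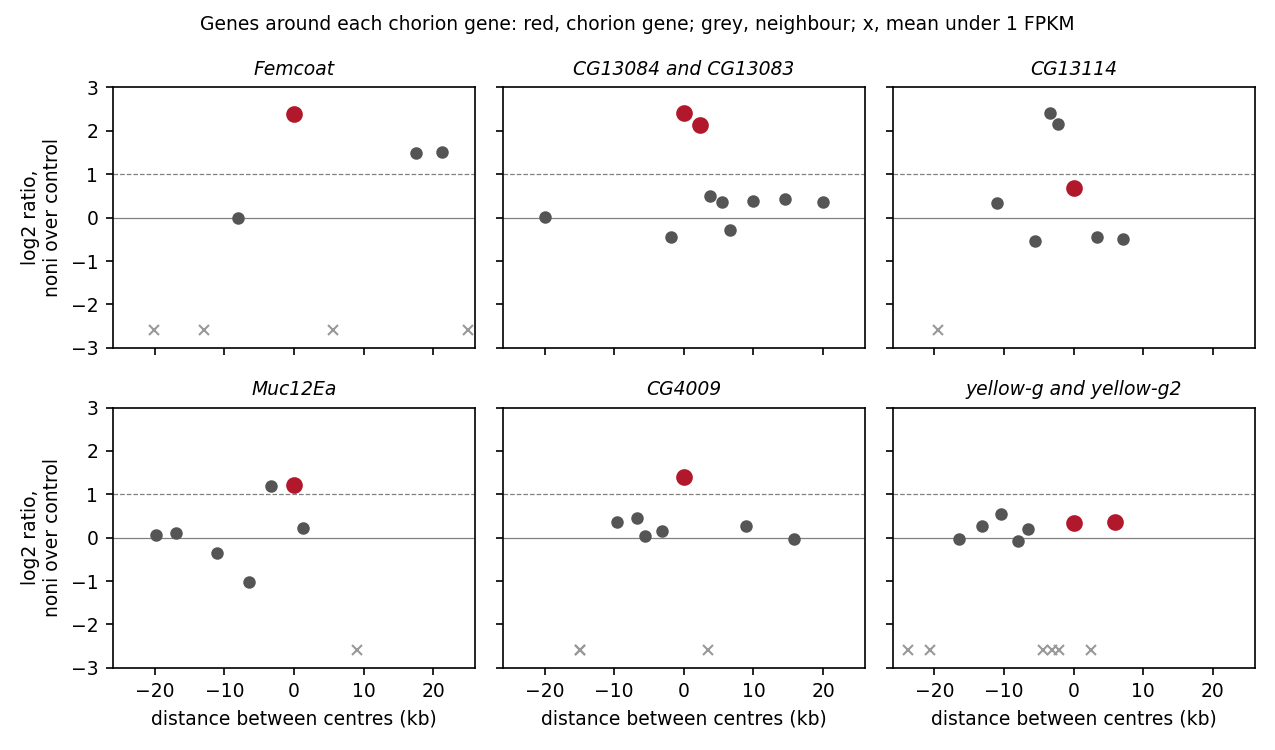
Log2 ratio of noni to control FPKM of genes around the chorion genes outside the clusters, against the distance between gene centres in kb, in 6 panels. Red points are the chorion genes, grey points are neighbours averaging 1 FPKM or more over both diets, crosses at the bottom mark neighbours under that level, which have no ratio shown, and the dashed line marks a 2-fold higher value on noni. Neighbours above the dashed line appear beside *Femcoat*, *CG13114* and *Muc12Ea* and not in the panels of *CG13084* and *CG13083*, of *CG4009* and of the *yellow* pair.

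Within 20 kb on either side of the 8 loci there were 35 further genes averaging 1 FPKM or more, and 5 of them, 14.3%, were at least 2-fold higher on noni, against the 2.58% over all genes. Without GM17673 there were 4 of 34, or 11.8%, and within 50 kb there were 6 of 80, or 7.5%. The windows and these genes were chosen after their values were seen. Besides GM17673 and GM17532 the 5 were GM12332 and GM12700, the orthologs of *CG15570* and *CG15571*, at 11.2 and 16.9 kb from *Femcoat*, and GM17521 beside GM17532. GM12332 had 113 FPKM on noni and 39.9 FPKM on control food, and GM12700 had 118 FPKM on noni and 41.1 FPKM on control food, the second with a log2 ratio of 1.52. GM17521 was near the minimum, with 1.70 FPKM on noni and 0.318 FPKM on control food. GM12332, GM12700 and GM17673 were also among the 6 genes other than the chorion genes that were at least 2-fold higher on noni in the band of 36 to 43 FPKM on control food.

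Apart from all lists, the 3 genes most like the median of the 8 in ratio and level were sought among 4253 genes with at least 10 FPKM in both diets and a control level within 2-fold of their median of 42.0 FPKM. They were GM14590, with 93.9 FPKM on noni and 38.2 FPKM on control food, GM19497, with 92.5 FPKM on noni and 39.3 FPKM on control food, and GM17576, with 67.4 FPKM on noni and 28.7 FPKM on control food. Their log2 ratios were 1.30, 1.23 and 1.23, within 0.0678 of the median of the 8 chorion genes. Likeness rests on 2 pooled values per gene. The loci of these 3 genes are 129, 174 and 183 nt long, shorter than the 897 nt of *Muc12Ea*, the shortest of the 8 loci. Whether FPKM is reliable at such short loci was not tested.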

How the data were processed

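RNA of whole *D. sechellia* females was sequenced in 3 libraries per diet, grouped by the diet in their titles. The authors used FastQC for read quality, Bowtie2 for mapping to the build dsec_caf1, and Cuffdiff for quantification (versions are not given in the sources used here). The FPKM values deposited by the authors are Cuffdiff estimates pooled over the 3 libraries of a diet. Depths of single libraries are listed in the paper but are not part of the table. Without FPKM values of single libraries, precision cannot be given. Its columns of the authors' own comparison (log ratio, test statistic, p-value, q-value and call) were not used.

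Ratios are noni over control FPKM without a pseudocount, and the background was every gene averaging 1 FPKM or more over both diets. With no replicate values, no test was run. Locus starts count from 0, since 47.5% of the locus lengths are then multiples of 3, against 26.8% otherwise, and are printed counted from 1. Genes named were the 8 chorion genes, the other lists, the nearest gene on either side and the 3 genes of most similar pattern, and others are said to be chosen after their values were seen. The 8 genes and the lists were chosen with earlier results of these data known. Ortholog names were taken from the study's supplementary tables. Alternatives were pseudocounts, centring, scaling, thresholds and filters. The calculation was tested on simulated data. Values were computed with pandas 2.3.3 and numpy 2.4.6 under Python 3.11.15, correlations with scipy 1.17.1, and plots with matplotlib 3.10.9.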

Additional observations from a re-analysis of the deposited data

How the results depend on the processing

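Results were counted as moved where a log2 value changed by 0.1 or more, or a count or share by over 1.5 times. All 8 genes stayed higher on noni with 1 or 10 FPKM added, centring on the median of all genes and both scalings to equal sums, and 5 of 8 stayed at least 2-fold higher under each of these. At a threshold of 3-fold the count was 3 genes, with a background of 1.31%, and at 1.5-fold it was 6 genes, with a background of 6.42%. With 10 FPKM added the background at 2-fold was 0.722% and the median log2 ratio of the 8 genes was 1.12, and over genes averaging 10 FPKM or more the background was 1.28%. Scaling to equal sums over all genes put the share of all genes higher on noni at 64.7%. The median without any single gene lay between 1.21 and 1.40. The log2 of the ratio of sums, 0.97, was 1.37 as the mean log2 ratio of the 8 genes. The difference of -0.46 from the clustered chorion genes was -0.30 between means, -0.28 against the X-linked cluster and -0.88 against the autosomal cluster. Among single genes, 5 of 40 alternative values moved and all 40 were above 0. In place of 5 of 35 neighbouring genes within 20 kb, 3 of 25 (12.0%) were at least 2-fold higher within 10 kb and 6 of 80 (7.5%) within 50 kb, windows chosen after seeing the data. No paired analysis was possible because the table holds 1 pooled value per diet, and for the same reason no library could be left out.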

Other observations

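In the band of 36 to 43 FPKM on control food, the genes at least 2-fold higher on noni that are neither chorion genes nor their neighbours were GM14590, GM19497 and GM10921, the ortholog of *Sodh-2*, a sorbitol dehydrogenase gene. They were named after their values were seen. GM10921 had 85.1 FPKM on noni and 39.1 FPKM on control food, a log2 ratio of 1.12. In the band of 207 to 273 FPKM on control food, the 3 genes at least 2-fold higher on noni were *Cp7Fc* of the X-linked cluster, GM23806 and GM21895, the ortholog of *Pepck*, which encodes the enzyme of the first committed step of gluconeogenesis. GM21895 had 473 FPKM on noni and 232 FPKM on control food, a log2 ratio of 1.03. GM23806 had 701.5 FPKM on noni and 236 FPKM on control food, a larger log2 ratio of 1.57. Its locus on scaffold 0, from 16637843 to 16637944, is short, as are those of GM14590 and GM19497 at 129 and 174 nt. How reliable FPKM is at such short loci was not tested.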
